A study of Mus musculus with 2 samples.

Results

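Integrins are surface receptors built from an alpha and a beta chain, and each alpha chain pairs with a small set of beta chains. They bind cells to matrix, to other cells and to opsonized or apoptotic material, and in macrophages they serve adhesion, migration and uptake. CD11c itself is an integrin alpha chain, encoded by *Itgax*, and it reaches the surface only in a pair with CD18, encoded by *Itgb2*. The 10 integrin subunit genes described here were picked by gene name from 13549 listed genes: *Itgax*, *Itgam*, *Itgal* and *Itgb2* of the CD18 family, *Itgav* and *Itgb5*, and *Itga4*, *Itga6* and *Itga9* with their partner *Itgb1*. The table held all 10, each with at least 817 reads over both libraries.

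RNA was sequenced from retinal microglia of mice at postnatal day 5 that carried CD11c-Cre-gfp together with Rosa-TDTom, a reporter that Cre turns on for good. Cd11c-active cells had GFP and TdTomato when sorted (4041 cells), and Cd11c-lineage cells had TdTomato without GFP (5441 cells). Both came from the same pool of 8 retinas with 4 of each sex, and both groups share the genotype and a history of CD11c promoter use, so no cells that never used the promoter were compared. The labels do not say which stretch of the CD11c locus drives Cre. Each group is 1 library (12943998 and 13402625 reads), so no difference below has a replicate check, no test of the 2 conditions was possible, and no p-value is given.

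The sort used a reporter named for CD11c, encoded by *Itgax*, and *Itgam*, whose product CD11b marks microglia, is its neighbour on chromosome 7. The 250 bases before the RefSeq transcript start of both genes are shown because the first lies at the gene for which the reporter is named, whether or not the transgene holds this stretch, and the second at the alpha chain that *Itgax* is compared with below (RefSeq, GRCm38.p6, plus strand, chr7:128129300-128129549 for *Itgax* and chr7:128062390-128062639 for *Itgam*). Capitals mark matches to any of 3 motifs, searched on both strands. The first was GAGGAA, the core bound by the macrophage factor PU.1. The second was TGTGGT, bound by RUNX factors. The third was TGANTCA, bound by AP-1, where N is any base.
Itgax: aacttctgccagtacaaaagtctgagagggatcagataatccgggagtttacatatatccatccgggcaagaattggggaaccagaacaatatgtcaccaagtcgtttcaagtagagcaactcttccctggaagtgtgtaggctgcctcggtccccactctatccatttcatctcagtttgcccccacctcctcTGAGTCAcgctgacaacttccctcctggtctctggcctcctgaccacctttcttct
Itgam: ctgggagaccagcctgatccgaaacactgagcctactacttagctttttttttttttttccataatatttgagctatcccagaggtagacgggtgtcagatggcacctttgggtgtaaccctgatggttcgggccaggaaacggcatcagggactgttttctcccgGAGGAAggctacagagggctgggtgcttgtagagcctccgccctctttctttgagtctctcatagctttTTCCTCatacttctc
The *Itgax* window held 1 AP-1 match, 56 to 50 bases before the start. The *Itgam* window held 2 PU.1 core matches, at 84 to 79 and 15 to 10 bases before the start. Over 32536 different promoter windows of this length, 23.4% held the PU.1 core, 14.0% the RUNX motif and 6.73% the AP-1 motif. Promoter windows matched 7 of the 10 integrin genes, of which 3 held the PU.1 core, 1 the RUNX motif (*Itga4*) and 1 the AP-1 motif (*Itgax*). No motif overlapped another in these windows. A match describes letters only.

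Levels are given as CPM, read counts scaled to a common library size with TMM factors, and ratios as the log2 of Cd11c-active over Cd11c-lineage. Where a gene has a pair of values, Cd11c-active comes first. TMM places every log2 ratio 0.14 above the value from library totals, and the median over the 5207 genes with at least 817 reads was -0.01 under TMM and -0.15 under totals. Reads of these libraries scatter far more than independent reads would. For each gene the variance of the ratio relative to counting error was therefore measured in the 500 genes nearest in reads. This overdispersion was lowest around *Itga4* (82.2) and highest around *Itgb5* and *Itgb1* (206), which with *Itga6* lie so high that their neighbours are the 500 genes from 8028 reads upward. Each ratio has a counting 95% interval, and a widened one from reads divided by the overdispersion.

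The sorted material carried microglial transcripts at nearly equal level. The 10 microglia markers (*P2ry12*, *Tmem119*, *Cx3cr1*, *Csf1r* and 6 others) summed to 21560 and 20836 CPM, and none was at 0. All 10 endothelial markers were measured and summed to 820 CPM in Cd11c-active against 73.7 in Cd11c-lineage, where *Cldn5*, *Flt1*, *Tek*, *Esam*, *Plvap* and *Vwf* had 0 reads. Of 6 border macrophage markers 4 were measured and summed to 21.2 against 128 CPM, with *Cd163*, *Lyve1* and *F13a1* at 0 in Cd11c-active. Of 8 dendritic cell markers only *Zbtb46* (200 and 0 reads) and *Batf3* (39 and 14) were measured, with 19.4 and 0.996 CPM in sum. Of 6 monocyte and neutrophil markers 4 were measured, at 2.83 and 17.0 CPM, with *Ccr2* at 0 without GFP and *S100a8*, *S100a9* and *Plac8* at 0 with it. Over all 13549 genes, counts were above 0 for 11950 with GFP and for 11902 without it. Of 12 retinal neuron and glia markers 10 were measured, at 2348 and 2517 CPM, of which *Glul* alone held 2249 and 2369 (27773 and 33293 reads). Of these 10, 3 were higher and 3 lower by a log2 ratio of at least 1, beside 23.3% and 21.6% of all genes with at least 20 reads. Only the widened interval of *Slc1a3* (73 and 642 reads, -8.58 to -0.04) left out 0, and it included 0 with the overdispersion of the 200 nearest genes (-9.22 to 0.13) or 1 overdispersion for all genes (-9.10 to 0.10). The part of any of these cells in the integrin values was not tested, and in bulk RNA fewer cells of a type and less RNA per cell cannot be told apart.

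The integrin genes as a set were close to equal in the 2 libraries. Their reads summed to 55781 and 67561, which is 0.431% and 0.504% of all reads, or 4518 and 4808 CPM. *Itgb5* alone held 38.4% of the integrin reads in the first library and 38.0% in the second. *Itgb1* held 16.9% and 17.2%, and *Itga6* held 16.6% and 18.5%. The median log2 ratio of the 10 genes was -0.15, with 3 above 0 and 7 below. An absolute log2 ratio of at least 1 was reached by 1 of the 10, *Itga9*, beside 11.6% of the 5207 genes with at least 817 reads and 44.9% of the 13037 genes with at least 20. The widened interval included 0 for each of the 10, and left out 0 in 3.88% of those 5207 genes.

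**Figure D1:**
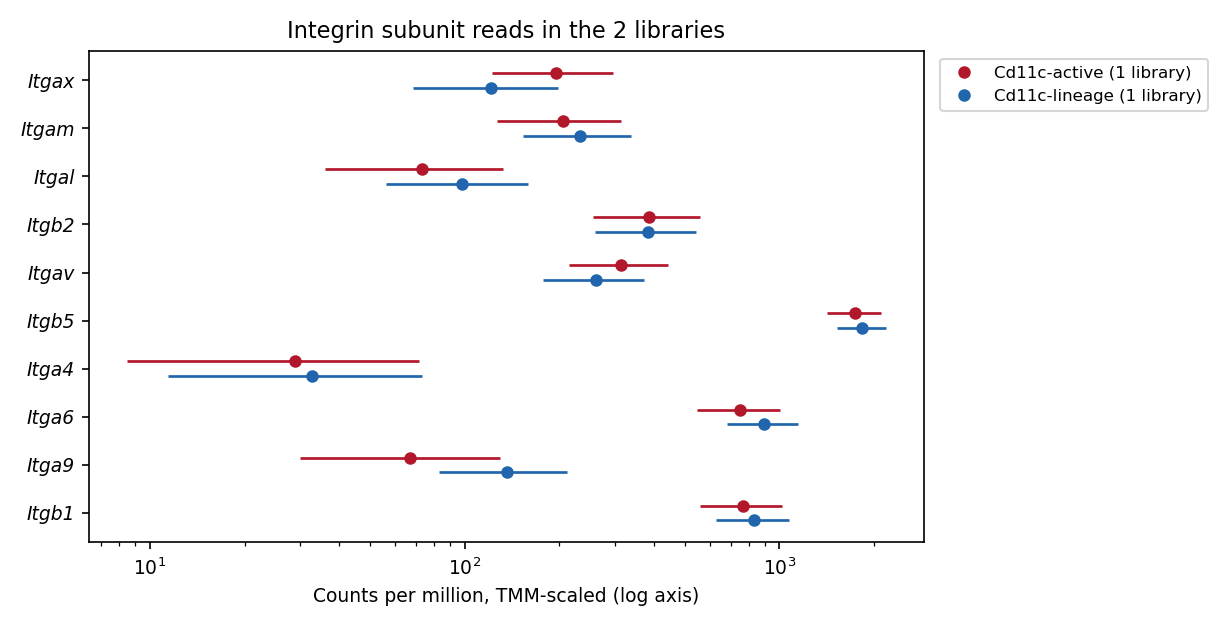
Level of each integrin subunit in CPM after TMM scaling (log axis), with 1 point per library and bars for the 95% interval widened by the overdispersion. Itgb5 is the most read subunit in both libraries (1737 and 1826 CPM), Itga4 the least (29.0 and 32.7), and the bars of the 2 libraries overlap for every gene.

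*Itgax*, the gene behind the sort, had 2409 reads in the Cd11c-active library against 1698 in the Cd11c-lineage library. Its share of the library was 0.0186% in the former (0.0179 to 0.0194, Wilson 95%) and 0.0127% in the latter (0.0121 to 0.0133). Among the 13549 genes its rank by reads was 966 with GFP and 1698 without, the latter by coincidence the same as its reads. At 195 CPM (widened interval 122 to 295) against 121 (68.4 to 198), *Itgax* was 1.61-fold higher in Cd11c-active. The widened interval of that fold ran from 0.805 to 3.32, so equal levels lie within it. Of the 500 genes nearest in reads (3552 to 4953), 93.4% had a lower ratio than *Itgax* (log2 ratio 0.69), and the middle 95% of them ran from -0.89 to 0.94 on the log2 scale. *Itgax* had the highest log2 ratio of the 10 integrin genes, and a ratio of at least 1, which it did not reach, was found in 6.66% of the genes with at least 817 reads. Its widened interval did not lie above 0, as that of 2.75% of those genes did.

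CD18, the only beta chain that CD11c pairs with, had nearly the same CPM in both libraries. *Itgb2* had 4769 and 5361 reads, at 386 and 382 CPM. Its log2 ratio was 0.02 (counting -0.04 to 0.07, widened -0.78 to 0.80), and it was -0.12 under library totals and -0.12 with a length and GC trend of the transcripts taken out, so its direction is not set by these data. Its ranks by reads were 359 and 354. Of its 500 neighbours 53.4% had a lower ratio.

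The other measured alpha chains of CD18, *Itgam* and *Itgal*, had ratios below that of *Itgax*, and a further one, *Itgad*, was not measured. *Itgam*, which encodes CD11b of complement receptor CR3, had 2527 and 3268 reads, at 205 and 233 CPM. The log2 ratio of *Itgam* was -0.18 (widened -1.08 to 0.70). *Itgal*, which encodes CD11a of LFA-1, a receptor for ICAM-1 on leukocytes, had 904 and 1382 reads, at 73.2 and 98.4 CPM. The log2 ratio of *Itgal* was -0.43 (widened -1.70 to 0.78). Both were lower in Cd11c-active by less than the scatter of their neighbours, of which 38.0% and 24.8% had a lower ratio.

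**Figure D2:**
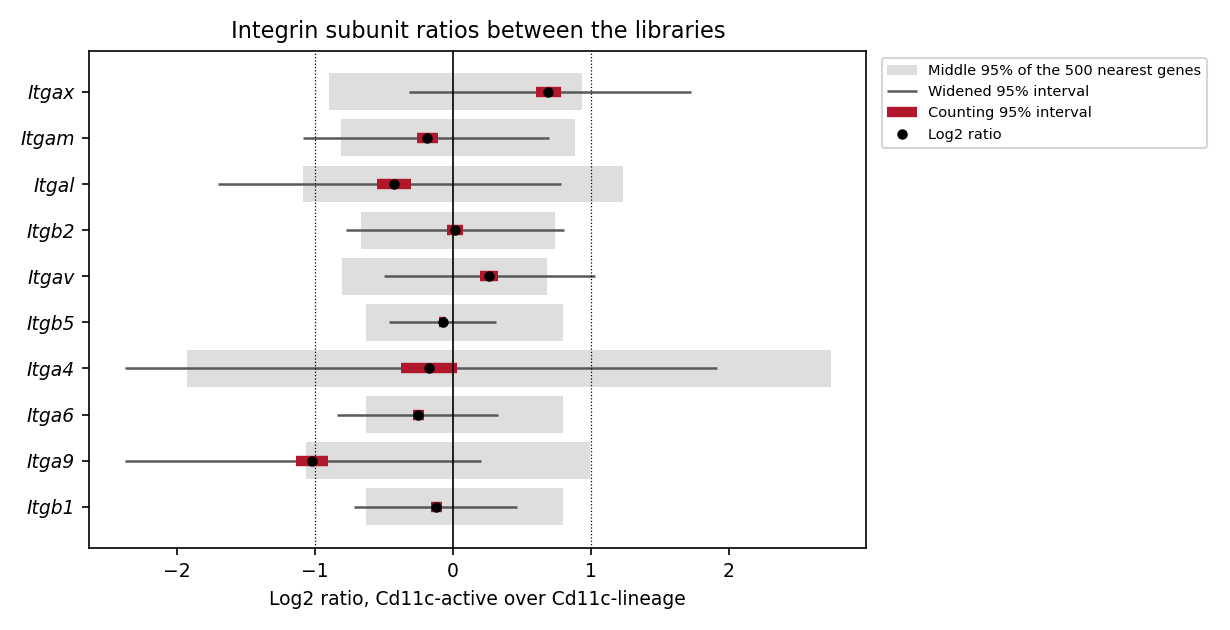
Log2 ratio of Cd11c-active over Cd11c-lineage for each integrin subunit (points), with the counting 95% interval (red), the widened 95% interval (thin bar) and the middle 95% of the 500 genes nearest in reads (grey); dotted lines mark -1 and 1. Itgax lies highest (0.69) and Itga9 lowest (-1.02), and every thin bar crosses 0.

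The 3 measured alpha chains of CD18 were also set against each other within a library, where library scaling plays no part. *Itgax* made up 41.2% of their 5840 reads in Cd11c-active (Wilson 40.0 to 42.5, widened 29.1 to 54.6) and 26.7% of 6348 reads in Cd11c-lineage (Wilson 25.7 to 27.9, widened 17.1 to 39.3). *Itgam* made up 43.3% and 51.5%, and *Itgal* 15.5% and 21.8%. In Cd11c-active *Itgax* and *Itgam* were thus nearly even, with 0.953 reads of *Itgax* per read of *Itgam*, while Cd11c-lineage had 0.520. The log2 difference between these ratios was 0.88, with a widened normal interval from -0.37 to 2.12 that includes 0. Per read of *Itgb2* there were 0.505 reads of *Itgax* in Cd11c-active and 0.317 in Cd11c-lineage, a log2 difference of 0.67 (-0.52 to 1.87). The 3 alpha chains together had 1.22 reads per read of *Itgb2* in Cd11c-active and 1.18 in Cd11c-lineage, a log2 difference of 0.05 (-0.87 to 0.96). The sum of the alpha chains relative to their shared beta chain was therefore close in the 2 libraries, while the point values within that sum shifted from *Itgam* and *Itgal* to *Itgax* with widened intervals of the shares that overlap between the libraries.

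**Figure D3:**
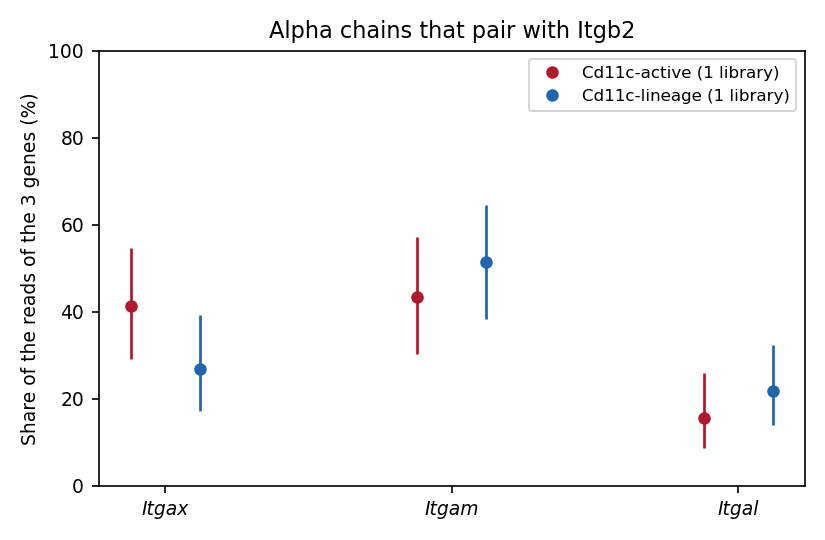
Share of the summed reads of Itgax, Itgam and Itgal taken by each gene in each library (percent), with 95% intervals widened by the overdispersion. The Itgax share is 41.2% in Cd11c-active and 26.7% in Cd11c-lineage, and the bars of the 2 libraries overlap for all 3 genes.

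Of the chains of the vitronectin receptor, *Itgb5* was close to equal in the libraries and *Itgav* was somewhat higher in Cd11c-active, within its widened interval. *Itgb5* pairs only with the alpha chain of *Itgav*, and this pair binds vitronectin and MFG-E8, a bridge to apoptotic cells. *Itgb5* had 21441 and 25661 reads, at 1737 and 1826 CPM, and ranked 48 and 40 of all genes. Its log2 ratio of -0.07 had the narrowest widened interval of the 10, from -0.46 to 0.31, or 0.726-fold to 1.24-fold. With the overdispersion of the 200 nearest genes the interval of *Itgb5* ran from -0.56 to 0.41. With 1 library per group, neither interval bounds a difference between the conditions. *Itgav* had 3877 and 3671 reads, or 314 and 261 CPM. The log2 ratio of *Itgav* was 0.27 (widened -0.50 to 1.03), with 78.6% of neighbours lower. *Itgav* and *Itgax* were the integrin genes with a log2 ratio above 0 under every scaling and after trend removal (0.13 to 0.47 for *Itgav*). *Itgav* also pairs with the products of *Itgb1*, *Itgb3* and *Itgb8*, so its reads cannot be assigned to 1 receptor.

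*Itgb1*, the shared beta chain of many matrix receptors, had 9421 and 11641 reads, at 763 and 828 CPM. Its log2 ratio was -0.12 (widened -0.71 to 0.47). *Itga6*, the alpha chain of laminin receptors, was read about as often as *Itgb1*, with 9244 and 12505 reads, at 749 and 890 CPM. Its log2 ratio was -0.25 (widened -0.83 to 0.33). Per read of *Itgb1* there were 0.981 reads of *Itga6* in Cd11c-active and 1.07 in Cd11c-lineage. Both genes are also expressed by endothelial cells, whose markers stood at 820 and 73.7 CPM. *Itga6* and *Itgb1* had log2 ratios below 0 while those markers were higher in Cd11c-active, and the part of endothelial cells in both values was not tested.

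*Itga9* and *Itga4* encode a pair of related alpha chains that bind VCAM-1 and, for *Itga9*, tenascin-C and osteopontin. *Itga9* had 831 and 1915 reads, at 67.3 and 136 CPM. It was 2.02-fold lower in Cd11c-active, and it had the lowest log2 ratio of the 10 genes, -1.02 (counting -1.14 to -0.90, widened -2.37 to 0.21). Of its 500 neighbours 2.80% had a lower ratio, and a log2 ratio of at most -1 was found in 4.92% of the genes with at least 817 reads. The fold threshold was missed after removal of the length and GC trend (-0.95). The border macrophage markers moved the same way (21.2 and 128 CPM), and their part in the *Itga9* value was not tested. *Itga4* had 358 and 459 reads, or 29.0 and 32.7 CPM, and a log2 ratio of -0.17. Its widened interval, from -2.38 to 1.92, was the widest of the 10, or from 0.192-fold to 3.78-fold, while its counting interval ran from -0.38 to 0.03. Its sign turned to 0.11 after trend removal. *Itgax* per read of *Itga9* was 2.90 in Cd11c-active and 0.887 in Cd11c-lineage, a log2 difference of 1.71 (widened 0.22 to 3.20). These are the 2 genes with the highest and lowest ratio, so this contrast describes the range of the set.

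**Figure D4:**
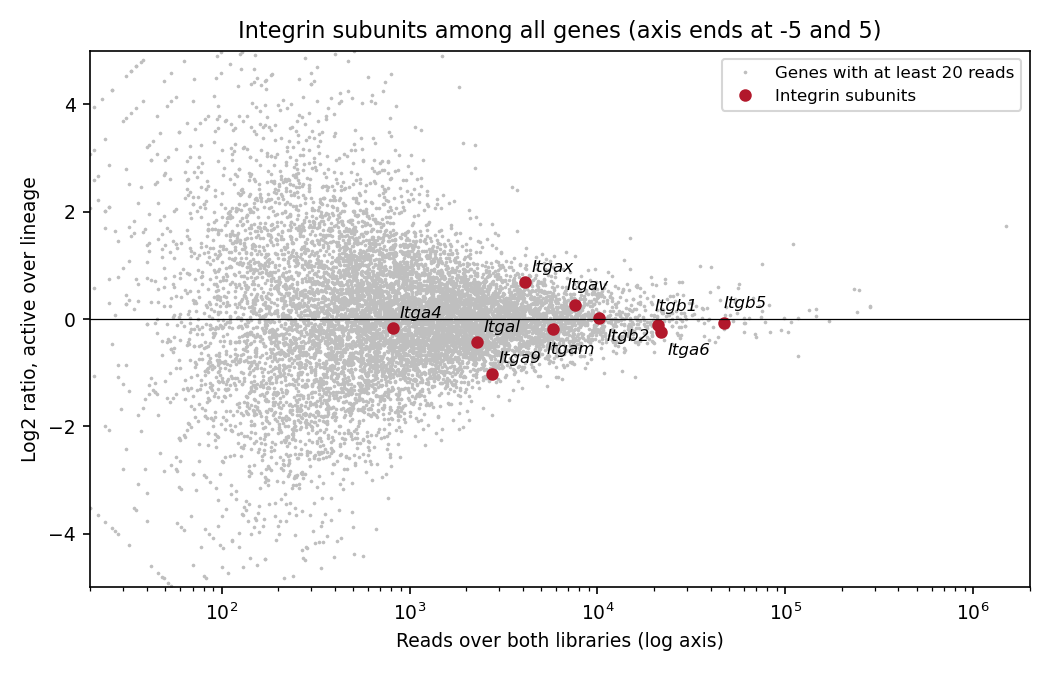
Log2 ratio of Cd11c-active over Cd11c-lineage against reads over both libraries (log axis) for 13037 genes with at least 20 reads (grey, 2858 of them beyond the axis ends at -5 and 5) and the 10 integrin subunits (red). The grey cloud narrows with reads, and Itgax and Itga9 lie towards its upper and lower edges while the other subunits lie within it.

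Levels between genes were compared per kilobase of the longest annotated transcript. *Itgb5* was highest in both libraries, with 529 and 556 CPM per kilobase, and its widened interval did not overlap that of the next gene. *Itgb1* (217 in Cd11c-lineage), *Itga6* (174 and 206) and *Itgb2* (130.1 and 128) followed in this order. Adjacent genes among these 3 had overlapping intervals, and *Itgb2* did not overlap the gene after it. With lengths from the union of exons *Itga6* fell behind *Itgb2* in both libraries (83.0 and 98.6 CPM per kilobase for *Itga6*). In Cd11c-active *Itgax* came next (48.2), then *Itgav* (44.5) and *Itgam* (43.7), with overlapping intervals. With the union of exons the order in Cd11c-active was *Itgam* (40.7), *Itgax* (40.6) and *Itgav* (29.2). In Cd11c-lineage the order of these genes was *Itgam* (49.7), *Itgav* (37.0) and *Itgax* (29.9), again with overlap. There the union of exons gave *Itgam* (46.3), *Itgax* (25.2) and *Itgav* (24.3). *Itgal* (14.0 and 18.8), *Itga9* (9.59 and 19.4) and *Itga4* (2.97 and 3.34) were lowest. In Cd11c-active *Itgal* lay above *Itga9*, and in Cd11c-lineage below it, with overlap in both.

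Of 16 other integrin subunits 10 were measured, and 6 of these had at least 20 reads over both libraries. Of the 6, 1 was higher and 2 lower by a log2 ratio of at least 1, beside 23.3% and 21.6% of all genes with at least 20 reads. *Itgb3*, a further partner of *Itgav* and the beta chain of the platelet fibrinogen receptor, had 1113 and 2518 reads, at 90.1 and 179 CPM. Its log2 ratio of -0.99 was just short of the fold threshold, passed it under library totals (-1.13), and had a widened interval from -2.04 to -0.02 that leaves out 0, as in 1.13% of genes with at least 817 reads for this direction. With the overdispersion of the 200 nearest genes the interval ran to 0.01 and included 0. *Itga2b*, the platelet partner of *Itgb3*, had 0 and 262 reads. Of 6 platelet markers 2 were measured, *Treml1* (38 and 68 reads) and *Gp9* (0 and 16), and their part in these values was not tested. *Itga5*, the alpha chain of the fibronectin receptor, had 1111 and 982 reads with a ratio of 0.36 (-0.97 to 1.72). The others were named after their values were seen. *Itga1* (50 and 0 reads), *Itgb7* (0 and 52), *Itga7* (0 and 15), *Itga10*, *Itgae* and *Itgb8* (0 and 9 each) were read in 1 library only, and their widened intervals, like that of *Itga2b*, include equal levels. For comparison, 11950 of all 13549 genes were above 0 with GFP and 11902 without. The share at 0 among genes with so few reads was not computed. *Itga3* had 106 and 78 reads. *Itga2*, *Itga8*, *Itga11*, *Itgad*, *Itgb4* and *Itgb6* were not measured.

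Genes of integrin activation and of the adaptors at integrin tails were mostly within the fold threshold (24 of 29). Of 31 genes 29 were measured, all with at least 20 reads, and their median log2 ratio was -0.06. At least 1 in absolute log2 ratio was reached by 4 higher and 1 lower in Cd11c-active, beside 23.3% and 21.6% of all genes with at least 20 reads. Of the 20 with at least 817 reads, 1 was higher and 0 lower, beside 6.66% and 4.92% of all genes at that minimum. *Tln1* encodes talin, which switches integrins to the active state from the inside, and had 21686 and 27412 reads at a ratio of -0.15 (widened -0.53 to 0.23). *Lyn*, a Src family kinase of myeloid cells, had 8984 and 10910 reads and a ratio of -0.09 (-0.71 to 0.51). *Rap1b*, a small GTPase upstream of talin, had 6459 and 8715 reads and a ratio of -0.25 (-0.95 to 0.45). In 1 of these genes the ratio was at least 1 and the widened interval left out 0, while library totals put it below 1 and the overdispersion of the 200 nearest genes gave an interval from -0.02 to 2.19. *Actn4*, the actin crosslinker alpha-actinin-4, had 3360 and 1846 reads and a ratio of 1.05 (0.10 to 2.05; 0.91 under totals).

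The ligand genes lay on both sides of 0. Of 30 ligand genes 20 were measured and 19 had at least 20 reads, with a median log2 ratio of 0.82, the same with genes at 0 reads set to the floor of 3 reads. Of the 19, 8 were higher and 4 lower by at least 1, beside the 23.3% and 21.6% above. Of the 12 with at least 817 reads, 5 were higher and 1 lower, beside 6.66% and 4.92%. The 4 lower ones, named after their values were seen, were *Postn* (0 and 170 reads), *C3* (69 and 295), *Jam2* (177 and 708) and *Vegfa* (108 and 365), and their widened intervals included 0. On the higher side this held for *Icam2* (47 and 0 reads), *Vcam1* (23 and 0) and *Lama5* (209 and 0), also named after their values were seen. *Icam1*, the ligand of CD11a and CD11b, was the most read at 5664 and 6750 reads, with a log2 ratio of -0.07 (widened -0.82 to 0.67). *Spp1*, the secreted ligand osteopontin, had 2721 and 2138 reads and a ratio of 0.53 (-0.47 to 1.56). Fibronectin, *Fn1*, had 4586 and 2197 reads and a ratio of 1.25 (0.42 to 2.13). Basement membrane genes, which encode ligands of *Itga6* and *Itgb1* pairs, made up the rest of those past the threshold with a widened interval above 0. *Lamb1* had 1640 and 0 reads. *Lama4* had 1740 and 98 reads and a ratio of 4.33 (1.92 to 8.81). *Lamc1* had 1990 and 907 reads and a ratio of 1.32 (0.14 to 2.61). *Nid1*, a linker of laminin and collagen, had 869 and 185 reads and a ratio of 2.42 (0.21 to 5.56). The endothelial markers were higher in the same library (820 against 73.7 CPM), and their part in the ligand values was not tested. *Mfge8*, ligand of the *Itgav* pairs and chosen after its values were seen, had 315 and 203 reads and a ratio of 0.82 (-1.89 to 3.90).

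**Figure D5:**
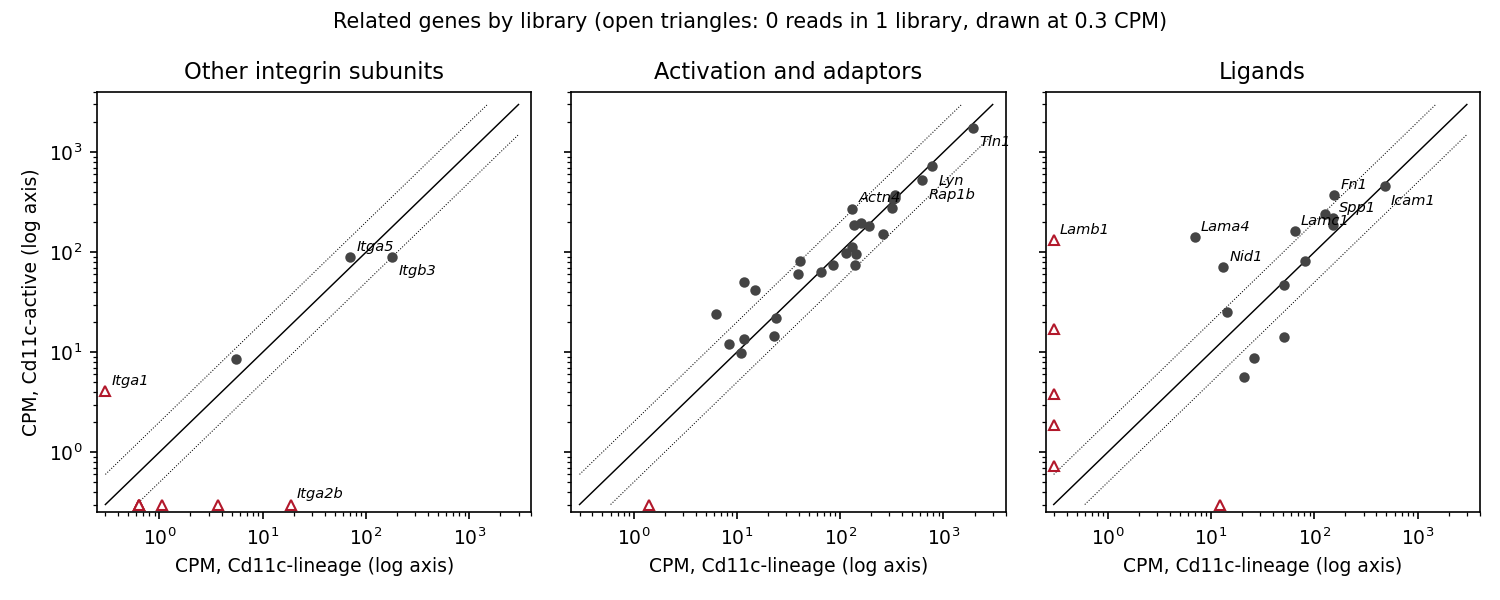
CPM in Cd11c-active against CPM in Cd11c-lineage (log axes) for other integrin subunits, activation and adaptor genes, and ligands. The solid line marks equal levels, the dotted lines a log2 ratio of 1 and -1, and open triangles at 0.3 CPM are genes with 0 reads in 1 library; most adaptor genes lie between the dotted lines, while Lama4 (4.33) lies above them.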

How the data were processed

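The file the authors deposited holds raw, unscaled counts for 1 Cd11c-active and 1 Cd11c-lineage library, and a log2 fold change with a log2 average CPM, per the file headers. Per the submitters' processing notes, the tools were cutadapt 3.5, STAR 2.7.9a, featureCounts 1.6.3 and edgeR 4.0.16 and the build GRCm39. Their roles, the strand setting and the low-count filter (smallest sum 6 reads) are not given in the sources used here. Total RNA was depleted of ribosomal RNA and made into stranded libraries, per the labels' protocols. The deposited log2 columns were not used for any result.

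TMM factors (0.954 and 1.05) came from edgeR 4.0.16 and alternative size factors from DESeq2 1.42.0 in R 4.3.3. Ratios used a prior count of 0.5 reads. Counting intervals were Clopper-Pearson for ratios, Poisson for levels and Wilson for shares. Widened intervals used reads divided by the overdispersion, the squared robust SD of the ratio over its counting error in the 500 nearest genes with reads in both libraries. They treat the typical neighbour as unchanged, so true differences among neighbours widen them. With 1 library per group, neither edgeR nor DESeq2 has residual degrees of freedom. A count of 0 allows 3 reads (0.243 and 0.214 CPM), for counting error only, since without molecular identifiers copies of 1 molecule count as several reads. Transcript lengths and GC content came from GENCODE M21 (GRCm38), which matched 13499 genes (99.6%), and no coordinates were taken from it. RefSeq promoters were matched by symbol. Genes were named by 3 rules: all members, the 3 most read genes of each related list, and those past a log2 ratio of 1 whose widened interval leaves out 0; other genes of these lists are marked, and cell type markers are named mainly where they have 0 reads in a library. One gene of the adaptor list entered no list count and is not reported here. The members, lists and tests were chosen with earlier results of these data known, and the motifs after the promoter sequences were seen. Computation used Python 3.11.15, numpy 2.4.6, scipy 1.17.1, pandas 2.3.3 and matplotlib 3.10.9.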

Additional observations from a re-analysis of the deposited data

How the results depend on the processing

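The log2 ratio of *Itgax* ranged from 0.55 (library totals) to 0.69 over TMM, library totals, DESeq2 size factors, TMM without ribosomal, mitochondrial, 7SK and 7SL genes, a prior count of 2 and removal of the length and GC trend. The sign changed for *Itgb2* and *Itga4* alone among the 10 genes. The number of genes past a log2 ratio of 1 was 0 after trend removal. With 1 overdispersion for all genes (83.9), or that of the 200 nearest genes, the widened intervals of all 10 still included 0. The 200 nearest genes gave intervals that included 0 also for *Itgb3* (-2.08 to 0.01) and *Actn4* (-0.02 to 2.19). At 1000 reads or more, 5.43% of 4619 genes were higher and 4.14% lower past the threshold. Of the other subunits, 0 of 2 were higher and 0 lower at that minimum. With no minimum 6 of 10, all with 0 reads in Cd11c-active, were lower and 1 was higher. The share of all genes without a minimum was not computed, so these counts have no baseline. Of the adaptor genes, 1 of 20 was higher and 0 lower at 1000 reads or more. Under library totals 3 of 29 were higher and 2 lower, and the share of all genes under totals was not computed. Of the ligands, 5 of 11 were higher and 0 lower at 1000 reads or more. Per kilobase, the *Itgax* share of the CD18 alpha chains was 45.5% in Cd11c-active and 30.4% in Cd11c-lineage, that of *Itgam* 41.3% and 50.5%, and that of *Itgal* 13.2% and 19.1%, so *Itgax* then exceeded *Itgam* in Cd11c-active. With lengths from the union of exons, added after the data were seen, *Itgam* (40.7 CPM per kilobase) was above *Itgax* (40.6) there. No paired analysis was possible because each group has 1 library.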
